A study of Mus musculus with 6 samples.

Results

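The genes described here are 38 genes of the complement and blood coagulation systems. They were picked by gene symbol from the 22063 genes of the deposited table, and each was found in exactly 1 row. The samples are 6 bladder tumours, all from female mice of an immunocompetent model of spontaneous bladder cancer, profiled by bulk RNA sequencing. Every tumour had been treated with an anti-PD-1 antibody, which blocks an inhibitory receptor of T cells. The labels call 3 tumours non-responsive and 3 responsive. There is no untreated group, and the labels give neither the animals' age and strain nor the rule by which response was called.

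Complement is a cascade of proteases and cofactors that marks surfaces for uptake by phagocytes, releases small chemoattractant fragments and can end in a membrane pore. It starts from C1q on antibody-coated or dying cells, from lectins on sugars, or from a self-amplifying alternative loop around C3. Coagulation starts when tissue factor meets factor VII, runs through factor X to thrombin and fibrin, and is held back by dedicated inhibitors and dissolved by plasmin. The liver makes most circulating factors, while macrophages, fibroblasts, endothelium and epithelium make many of them locally.

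Libraries held 15046178 to 23917413 counts, and levels are given as CPM, counts relative to the TMM-scaled library total. A count of 0 allows up to 3 counts, or 0.124 to 0.199 CPM, for counting error alone. Epithelial keratins were abundant in all 6 tumours (Krt5 at 1088 to 8266 CPM). Luminal urothelial markers were present but uneven, with a summed level of 843, 245 and 89.7 CPM in non-responsive replicates 1, 2 and 3. In responsive replicates 1, 2 and 3 the sum was 345, 894 and 2078 CPM. Krt20 made up 548 of the 843 CPM and was the only 1 of these 6 markers fitted above 0. Responsive replicate 1 stood apart by its erythroid markers (summed 13163 CPM, against 226 to 1939 CPM elsewhere) and adipocyte markers (4955 CPM, against 171 to 435 CPM). Non-responsive replicate 1 lay within the range of the responsive tumours for 17 of the 38 genes, against 14 and 13 for non-responsive replicates 2 and 3. Over all genes tested these shares were 46.7, 31.4 and 31.8%.

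No complement or coagulation gene passed the test over all genes (edgeR quasi-likelihood test with Benjamini-Hochberg adjustment, smallest adjusted p = 0.350), and the same was true of all 14505 genes tested (0% called). All 38 genes passed the expression filter. They were chosen with earlier results of these data known, so this pass and the counts below only describe them. At an unadjusted edgeR p under 0.05 there were 6 at higher and 5 at lower levels in non-responsive tumours, or 11 of 38, where the background over all genes was 6.79% higher and 5.79% lower, 12.6% in all. The 5 became 1 without non-responsive replicate 3, 2 without responsive replicate 1, 3 without responsive replicate 2 and 7 when non-responsive replicate 1 was left out. The share of all genes at lower levels was then 3.01, 5.42, 4.14 and 11%. By the DESeq2 test 2 genes passed, F10 upwards and Plat downwards, where 1.38% of genes were called higher and 1.49% lower, 2.87% in all. Without non-responsive replicate 1 it called 11 of the 38 and 13.1% of all genes, and F10 and Plat were called without any 1 tumour. In 4 genes the 3 non-responsive values lay all above the responsive ones and in 6 all below, against backgrounds of 9.58% and 8.08%. By sign, 18 of 38 genes had a log2 fold change above 0, against 51% of all genes. Of 20 complement genes 14 had a log2 fold change below 0, with a median of -0.32, while 12 of 18 coagulation and fibrinolysis genes were above 0, with a median of 0.58. Over all genes tested the median was 0.014, and the difference between the groups of genes was not tested. Leaving out 1 tumour at a time gave complement medians between -0.53 and -0.16, with the latter without responsive replicate 1. Coagulation medians then lay between 0.24 without non-responsive replicate 2 and 0.77. The further genes of these pathways, described last, did not repeat this split in all of their lists.

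**Figure D1:**
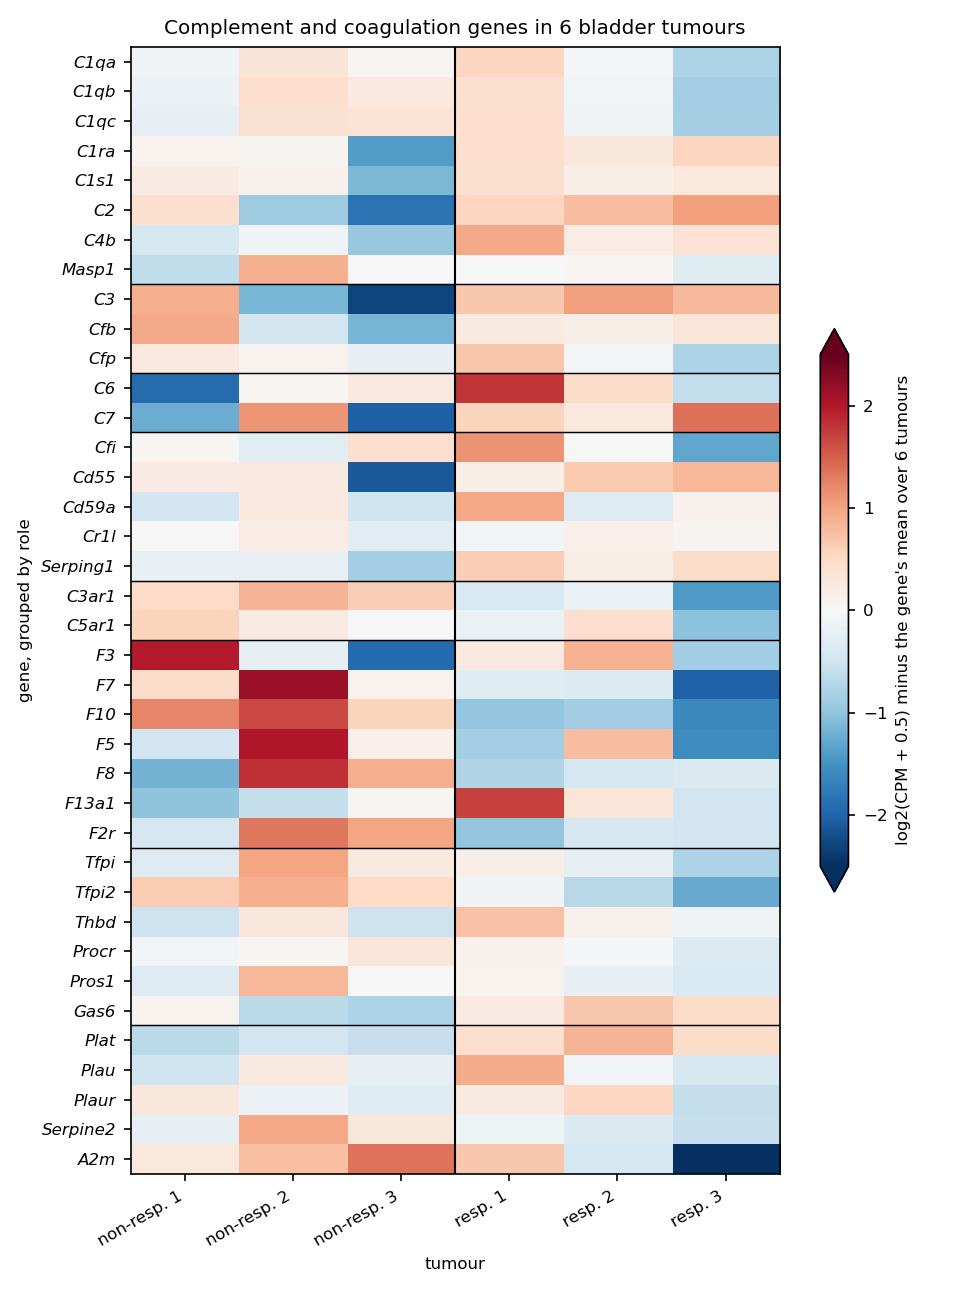
Level of each of the 38 genes in each tumour, as log2(CPM + 0.5) centred on that gene's mean; rows are grouped by role (classical and lectin pathway, C3 and alternative pathway, terminal pathway, regulators, anaphylatoxin receptors, procoagulant, anticoagulant, fibrinolysis). C3 and Cd55 were lowest in non-responsive replicate 3. The highest value was in non-responsive replicate 2 for 13 genes and in responsive replicate 1 for 12. Over all genes tested these shares were 23.4 and 17.4%. The lowest value was in responsive replicate 3 for 17 genes and in non-responsive replicate 3 for 14, against 17.7 and 19.4% of all genes.

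**Figure D2:**
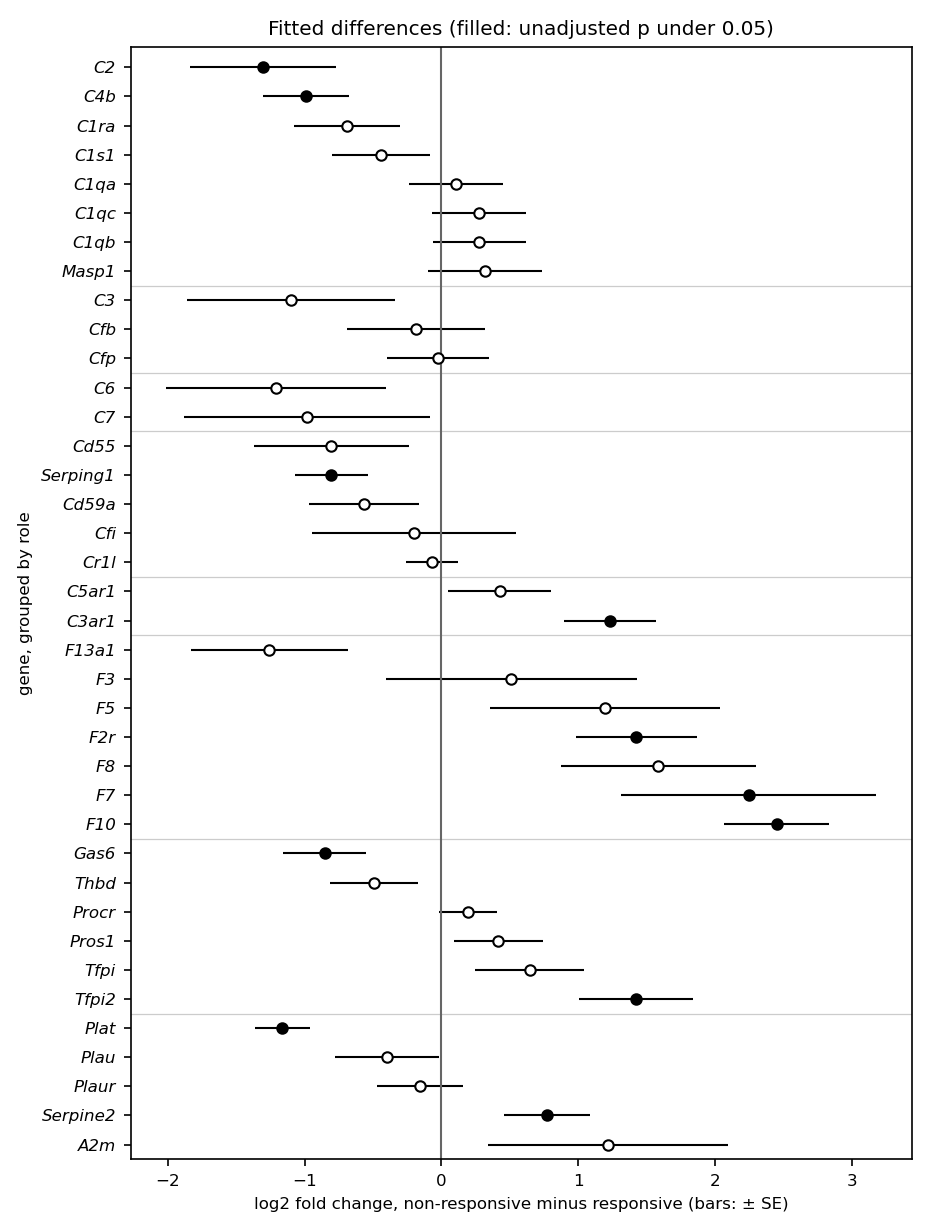
Fitted log2 fold change of each gene (non-responsive minus responsive, horizontal axis) with its standard error as a bar, by role; filled points have an unadjusted p under 0.05. The filled points are 6 genes above 0 and 5 below 0, with F10 farthest from 0 at 2.45.

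C1q, the recognition molecule of the classical pathway, is built from 3 chains that macrophages make. Per length, the chains were among the 5 highest of the 38 genes, with mean deposited FPKM of 239, 210 and 173 for C1qa, C1qb and C1qc. Values are listed in replicate order. C1qa had 223, 298 and 247 CPM in non-responsive and 343, 234 and 137 CPM in responsive tumours. The groups overlapped throughout, and the highest and the lowest value were both in responsive tumours. C1qb was at 197, 290 and 258 CPM against 287, 207 and 120 CPM, and C1qc at 170, 256 and 248 CPM against 262, 184 and 111 CPM. The log2 fold changes were 0.11 ± 0.35, 0.28 ± 0.34 and 0.27 ± 0.34 (SE), and those of C1qa and C1qb turned to -0.18 and -0.0009 without responsive replicate 3. C1qa was also at -0.0049 without non-responsive replicate 2.

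The 3 chains kept nearly constant proportions while their level varied. The ratio of C1qc to C1qb in FPKM was between 0.783 and 0.870 in the 6 tumours, and that of C1qa to C1qb between 1.00 and 1.25. The summed CPM of the chains ranged from 368 in responsive replicate 3 to 893 in responsive replicate 1. The summed level of 11 macrophage markers was 1720, 2884 and 1626 CPM against 2149, 1913 and 926 CPM, with 9 of 11 fitted above 0 and none at 0 in every tumour. Lyz2, 1 of the 11, gave 1056, 2023 and 933 CPM of that sum in non-responsive and 1512, 1206 and 563 CPM in responsive tumours. C1q divided by the sum of all 11 was between 0.293 and 0.463, a ratio that rests largely on Lyz2. In bulk tumours fewer cells of a type and less RNA per cell cannot be told apart.

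**Figure D3:**
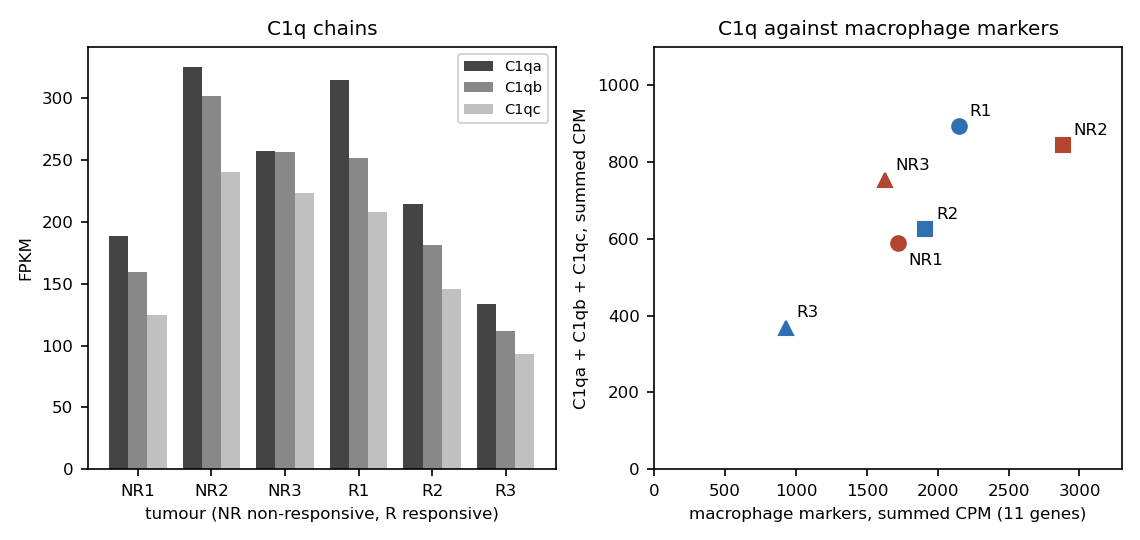
Left, deposited FPKM of C1qa, C1qb and C1qc in each tumour (bars from 0). Right, summed CPM of the 3 chains against the summed CPM of 11 macrophage markers, 1 point per tumour (red non-responsive, blue responsive). Responsive replicate 3 was lowest on both axes, at 368 and 926 CPM. Of the latter, 563 CPM came from Lyz2, the most abundant marker of the 11 in every tumour.

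C1qb, C1qc and C1qa lie next to each other on the minus strand of chromosome 4 (136880129 to 136886187, 136889804 to 136893065 and 136895917 to 136898803, mm10), with gaps of 3616 and 2851 bases. Upstream sequence from RefSeq (GRCm38.p6) is shown for C1qb and C1qc because these neighbours kept the steadiest ratio. Each is read 5′ to 3′ on the gene's strand, at chr4:136886201-136886450 (minus) and chr4:136893066-136893164 (minus). The C1qc window is cut to the 99 bases outside annotated exons. Capitals mark GAGGAA or its reverse complement TTCCTC, letters bound by PU.1 of macrophages, which is an ETS factor. They were searched on both strands without regard to overlap with other motifs. The shorter core GGAA that ETS factors share was not searched and is not marked.
C1qb: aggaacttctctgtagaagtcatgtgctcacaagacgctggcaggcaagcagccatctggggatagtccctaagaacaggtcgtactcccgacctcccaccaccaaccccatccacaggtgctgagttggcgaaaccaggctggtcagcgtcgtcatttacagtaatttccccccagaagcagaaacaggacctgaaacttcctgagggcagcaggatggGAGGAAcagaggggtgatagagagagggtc
C1qc: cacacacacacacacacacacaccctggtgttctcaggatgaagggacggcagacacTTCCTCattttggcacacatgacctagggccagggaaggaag
The match lay 30 bases before the RefSeq start of C1qb, on the gene's strand, and 193 bases before that of C1qc, on the other strand. Of 32851 such 250-base windows before RefSeq starts 23.3% held this motif, as did those of 8 of the 27 genes described here that have one. These are letter matches and not measured sites.

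The proteases that C1q activates, and their substrates, all had fitted differences below 0. C4b, whose product is cleaved by C1s to start the classical convertase (chromosome 17, 34728380 to 34743882), was at 218, 276 and 154 CPM in non-responsive and 571, 334 and 380 CPM in responsive tumours. All 3 non-responsive values lay below the responsive ones. The log2 fold change was -0.99 ± 0.32, with an edgeR adjusted p of 0.364. It stayed between -1.19 and -0.73 when any tumour was left out. No row of the deposited table carried the symbol of the copy C4a. C2, the protease subunit of that convertase (chromosome 17, 34862604 to 34898265), was at 63.0, 25.4 and 13.01 CPM against 69.8, 82.0 and 97.9 CPM. The groups did not overlap, although non-responsive replicate 1 came close, and C2 differed by -1.30 ± 0.53 (edgeR adjusted p = 0.389). Without non-responsive replicate 1 the C2 difference was -2.12, and without non-responsive replicate 3 it was -0.91.

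C1ra and C1s1, the proteases within the C1 complex, differed by -0.69 ± 0.39 and -0.44 ± 0.36. C1ra did not overlap between the groups (49.6 to 139 CPM against 160 to 192 CPM), and C1s1 did (131 to 326 CPM against 318 to 376 CPM). For both, non-responsive replicate 3 was far below the rest; leaving it out gave -0.34 and -0.13. Their copies C1rb and C1s2 had at most 0.271 and 0.997 CPM. Masp1, a protease of the lectin pathway, was the least abundant of these genes (2.98 FPKM on average) and differed by 0.32 ± 0.42. Its highest value, 19.9 CPM, was in non-responsive replicate 2.

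C3, the protein on which all pathways converge and whose fragments coat targets (chromosome 17, 57203970 to 57228136), had the highest FPKM of the 38 genes, with a mean of 582. Its level was 4236, 1027 and 463 CPM in non-responsive and 3638, 4611 and 3994 CPM in responsive tumours. Non-responsive replicate 1 was at the responsive level, and the other non-responsive tumours were far below it. C3 took 0.373, 0.116 and 0.0502% of all counts in non-responsive tumours and 0.347, 0.439 and 0.405% in the responsive ones. The log2 fold change was -1.10 ± 0.76 (edgeR adjusted p = 0.527), and -2.46 without non-responsive replicate 1. Leaving out the second or the third non-responsive tumour instead gave -0.78 and -0.63. The summed luminal urothelial markers were at 843, 245 and 89.7 CPM in non-responsive and 345, 894 and 2078 CPM in responsive tumours. Krt20 gave 548 CPM of the sum in non-responsive replicate 1. In that tumour Upk1a, Upk1b, Upk2, Upk3a and Upk3b were at 3.71, 102, 10.3, 3.38 and 175 CPM. The part of these markers in the result was not tested.

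Cfb, the protease of the alternative convertase, lies 85 bases from C2 on the same strand (chromosome 17, 34856374 to 34862518). It was at 404, 152 and 94.1 CPM in non-responsive and 245, 233 and 260 CPM in responsive tumours. The responsive values lay within the non-responsive range, and the log2 fold change was -0.18 ± 0.50. Without non-responsive replicate 1 it was -1.004, and without non-responsive replicate 3 it was 0.18. In FPKM the ratio of Cfb to C2 was 6.22, 5.65 and 7.37 in non-responsive and 3.35, 2.78 and 2.58 in responsive tumours, so the neighbours did not keep 1 proportion. The counting of reads at their boundary is not described in the labels. Cfp, properdin, which stabilises the alternative convertase, differed by -0.025 ± 0.37.

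**Figure D4:**
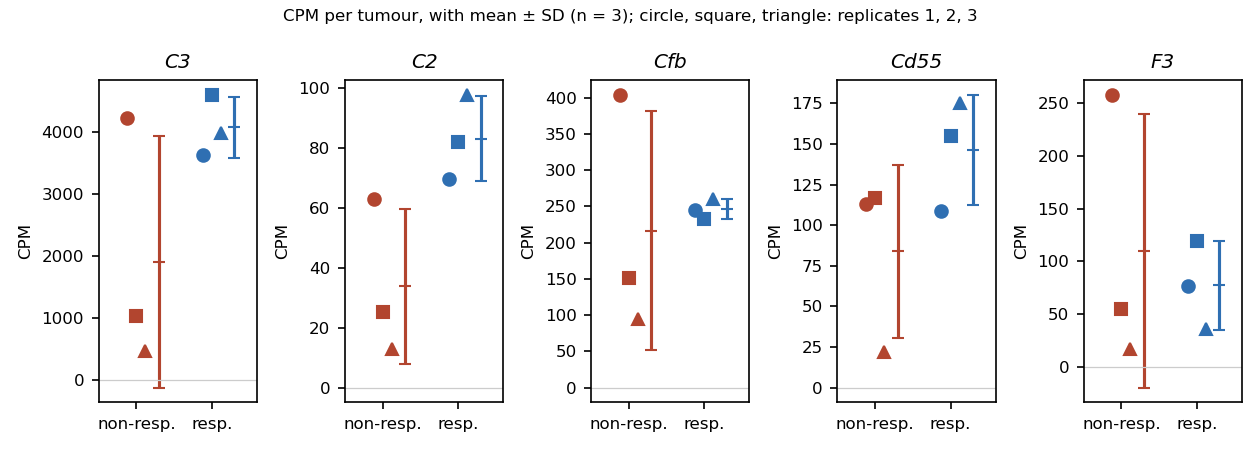
CPM of C3, C2, Cfb, Cd55 and F3 in each tumour (red non-responsive, blue responsive; circle, square and triangle for replicates 1, 2 and 3) with the group mean ± SD (n = 3) beside the points. Non-responsive replicate 1 was the highest non-responsive tumour for C3, C2, Cfb and F3, with C3 at 4236 CPM.

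C6 and C7, subunits of the membrane pore, were weakly expressed (3.02 and 2.75 FPKM on average). C6 was at 1.26, 6.45 and 7.50 CPM in non-responsive and 22.6, 8.70 and 3.92 CPM in responsive tumours. C7 was at 1.92, 11.7 and 0.880 CPM against 7.86, 6.35 and 14.4 CPM. In both genes the groups overlapped. C6 differed by -1.21 ± 0.80 and C7 by -0.98 ± 0.90, and both moved with single tumours. The difference of C6 was -0.31 without responsive replicate 1, the tumour rich in adipocyte and erythroid markers, and that of C7 was -2.76 without non-responsive replicate 2. Leaving out replicate 3 of the non-responsive or of the responsive group gave -0.49 and -0.58 for C7.

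All 5 complement regulators had a log2 fold change below 0, although Cr1l at -0.067 ± 0.19 and Cfi at -0.20 ± 0.74 were close to it and changed sign under some alternatives. Serping1, the C1 inhibitor, which also blocks contact proteases (chromosome 2, 84765387 to 84775444), was at 268, 268 and 169 CPM in non-responsive and 466, 346 and 419 CPM in responsive tumours. The groups did not overlap, and the difference was -0.80 ± 0.27 (edgeR adjusted p = 0.364). With any tumour left out it lay between -0.91 and -0.62. Fibroblast markers, whose cells make C1 inhibitor, C4 and C1s, moved both ways: Dcn did not overlap and was lower (-1.08 ± 0.40), while Col1a1 (1.06 ± 0.26), Col1a2 and Col3a1 did not overlap and were higher. In sum 6 of 8 were fitted above 0, with 5462, 6915 and 6224 CPM against 5638, 5106 and 4470 CPM and none at 0 in every tumour. Their part in the result was not tested. Cd55, which accelerates convertase decay on cell surfaces, was at 113, 116 and 22.3 CPM against 109, 155 and 175 CPM. Its difference of -0.80 ± 0.57 was -0.35 without non-responsive replicate 3, the only tumour below 100 CPM. Cd59a, which blocks the pore, differed by -0.57 ± 0.40, and its copy Cd59b was at 0.254 to 1.04 CPM.

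The receptors for the released fragments had the opposite direction. C3ar1, the receptor of C3a on myeloid cells (chromosome 6, 122847138 to 122856161), was at 59.3, 76.5 and 65.0 CPM in non-responsive and 32.4, 37.7 and 15.5 CPM in responsive tumours. All non-responsive values lay above all responsive ones. C3ar1 differed by 1.23 ± 0.34, a 2.35-fold higher level, with an edgeR adjusted p of 0.350 and a DESeq2 adjusted p of 0.0515. When any tumour was left out it lay between 0.93 and 1.48. C5ar1, the receptor of C5a on neutrophils and macrophages, was at 43.9, 34.2 and 29.6 CPM against 26.4, 39.6 and 14.3 CPM, with overlap and a difference of 0.43 ± 0.38. Macrophage markers moved unevenly beside C3ar1: Msr1, Fcgr1 and Mertk did not overlap between the groups and were higher in the non-responsive tumours, while Trem2 and Lyz2 differed by 0.14 and 0.29 and Cd163 by -1.23. Their part in the result was not tested.

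Of 7 procoagulant genes 6 were above 0, with a median log2 fold change of 1.42, and 0.85 without non-responsive replicate 2. F10, the protease that converts prothrombin to thrombin (chromosome 8, 13037308 to 13056676), had the smallest p among the 38 genes. It was at 25.3, 34.3 and 15.8 CPM in non-responsive and 5.15, 5.59 and 3.09 CPM in responsive tumours. The lowest non-responsive value was well above the highest responsive one. The means were 25.2 ± 9.23 and 4.61 ± 1.33 CPM (SD, n = 3). F10 differed by 2.45 ± 0.39, a 5.46-fold higher level, which passed DESeq2 (adjusted p = 6.36e-06) and did not pass edgeR (adjusted p = 0.350). It passed DESeq2 without any 1 of the 6 tumours, with log2 fold changes between 2.17 and 2.69.

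F7, the protease that binds tissue factor and activates factor X, lies 1498 bases upstream of F10 (chromosome 8, 13026034 to 13035809). It was at 3.45, 12.1 and 2.55 CPM in non-responsive and 1.85, 1.78 and 0.206 CPM in responsive tumours. The groups did not overlap, but the lowest value rests on 5 counts, and non-responsive replicate 2 was far above the rest. F7 differed by 2.25 ± 0.93 (edgeR adjusted p = 0.392), and by 1.25 without non-responsive replicate 2. The 250 bases before the RefSeq starts (GRCm38.p6) are shown because the genes are neighbours on the plus strand and both had higher levels. They lie at chr8:13025784-13026033 and chr8:13037058-13037307 (plus), with capitals as above.
F7: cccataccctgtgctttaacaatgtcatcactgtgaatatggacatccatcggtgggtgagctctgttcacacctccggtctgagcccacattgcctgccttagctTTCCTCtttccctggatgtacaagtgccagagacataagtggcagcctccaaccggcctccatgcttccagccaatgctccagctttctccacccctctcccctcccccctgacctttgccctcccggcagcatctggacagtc
F10: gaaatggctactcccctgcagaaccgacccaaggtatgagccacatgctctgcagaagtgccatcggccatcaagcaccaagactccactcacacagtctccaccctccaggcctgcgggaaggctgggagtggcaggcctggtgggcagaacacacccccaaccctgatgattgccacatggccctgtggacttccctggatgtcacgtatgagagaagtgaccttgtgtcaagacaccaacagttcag
The F7 window held 1 match to GAGGAA or TTCCTC, 144 bases before the start, on the other strand. The F10 window held no match to these letters. Of all windows 33.8% held CCAAT or its reverse complement ATTGG, as did those of 4 of the 27 genes described here, F7 among them.

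F2r, the thrombin receptor PAR1 of endothelium and stroma (chromosome 13, 95601803 to 95618487), was at 28.8, 97.8 and 77.3 CPM in non-responsive and 19.3, 28.9 and 27.8 CPM in responsive tumours. Non-responsive replicate 1 lay within the responsive range and the others far above it. F2r differed by 1.42 ± 0.44 (edgeR adjusted p = 0.360), by 1.79 without non-responsive replicate 1 and by 1.09 without non-responsive replicate 2. F8, the cofactor made by endothelium, was at 2.32, 22.3 and 11.5 CPM against 3.30 to 4.49 CPM, with non-responsive replicate 1 below every responsive tumour. It differed by 1.59 ± 0.72, and by 0.81 without non-responsive replicate 2. The summed level of 7 endothelial markers was 277, 998 and 824 CPM in non-responsive and 361, 280 and 224 CPM in responsive tumours, with 7 of 7 fitted above 0 and none at 0 in every tumour. Their part in the result was not tested.

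F3, tissue factor, the trigger of coagulation, was spread widely among the non-responsive tumours, at 258, 54.6 and 16.4 CPM, against 76.8, 119 and 35.2 CPM in the responsive ones. The responsive values lay within the non-responsive range. The log2 fold change of 0.51 ± 0.92 turned to -1.12 without non-responsive replicate 1 and was negative in some alternatives. F5, the cofactor of factor X, differed by 1.19 ± 0.84, and by 0.086 without non-responsive replicate 2, where it was at 51.7 CPM. F13a1, which cross-links fibrin and is made by macrophages, was the exception among the procoagulant genes at -1.26 ± 0.57. It was at 221 CPM in responsive replicate 1 and at 33.3 to 83.1 CPM in the other tumours, and differed by -0.41 without that tumour. Of 6 platelet markers Gp1ba, Gp9 and Gp5 were at no more than 0.633 CPM in any tumour, Itga2b at 3.17 to 5.51, Pf4 at 11.9 to 32.3 and Ppbp at 207 to 1362 CPM. Their sum was 1386, 467 and 583 CPM against 464, 1285 and 228 CPM, with 1 of 3 tested above 0 and none at 0 in every tumour.

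**Figure D5:**
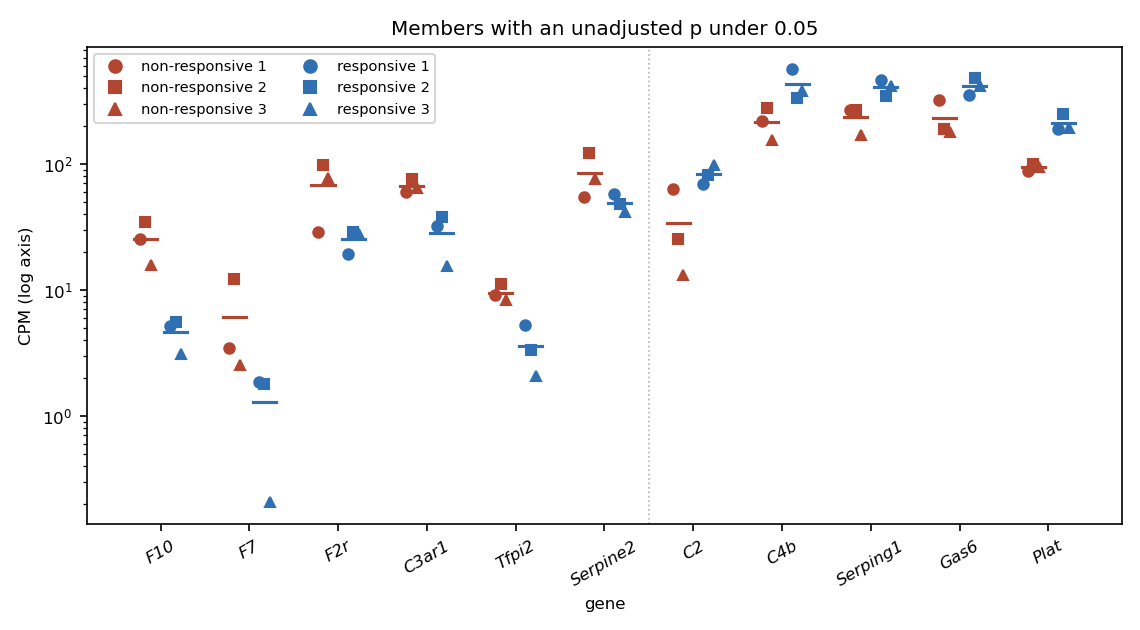
CPM (log axis) of the 11 genes with an unadjusted p under 0.05 in each tumour, with the group mean as a line; the 6 genes left of the dotted line had higher and the 5 right of it lower levels in non-responsive tumours. For F10 the 3 non-responsive tumours lay at 15.8 to 34.3 CPM and the responsive ones at 3.09 to 5.59 CPM.

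Of 6 genes grouped here as anticoagulants 4 were above 0, while Thbd and Gas6 were below. Gas6 was listed with them but is described below as a receptor ligand, not as an inhibitor. Tfpi2, a secreted Kunitz-type protease inhibitor (chromosome 6, 3962595 to 3988919), was at 9.14, 11.1 and 8.24 CPM in non-responsive and 5.29, 3.30 and 2.06 CPM in responsive tumours. The groups did not overlap. Tfpi2 differed by 1.42 ± 0.42, with an edgeR adjusted p of 0.350 and a DESeq2 adjusted p of 0.0528, and by 1.13 to 1.83 when a tumour was left out. Tfpi, the inhibitor of the tissue factor and factor VII complex, differed by 0.65 ± 0.40, and by 0.24 without non-responsive replicate 2. Thbd, thrombomodulin, which turns thrombin into an activator of protein C, was at 42.3, 73.8 and 42.0 CPM against 100, 65.1 and 56.8 CPM, overlapped and differed by -0.49 ± 0.32. Procr, the receptor of protein C, differed by 0.19 ± 0.21, within a narrow range of 24.2 to 38.3 CPM.

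The vitamin K-dependent proteins Gas6 and Pros1 are ligands of the TAM receptors Tyro3, Axl and Mertk, which mediate uptake of dying cells. Gas6 (chromosome 8, 13465374 to 13494490) was at 324, 191 and 178 CPM in non-responsive and 351, 484 and 418 CPM in responsive tumours. The groups did not overlap, with non-responsive replicate 1 nearest to the responsive tumours. Gas6 differed by -0.85 ± 0.30 (edgeR adjusted p = 0.364), and by -1.18 without non-responsive replicate 1. Pros1, protein S, differed by 0.42 ± 0.32, and by 0.019 without non-responsive replicate 2, where it was at 108 CPM. The receptors Axl and Mertk were at higher levels in non-responsive tumours without overlap, at 186, 255 and 192 CPM against 160, 144 and 103 CPM for Axl and 14.1, 32.0 and 31.3 CPM against 10.4, 12.8 and 9.73 CPM for Mertk, which is also 1 of the 11 macrophage markers. They differed by 0.64 ± 0.25 and 1.23 ± 0.35, while Tyro3 differed by -0.43 ± 0.54.

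Plat, tissue plasminogen activator (chromosome 8, 22757727 to 22782844), had the smallest p among the genes at lower levels. Its level was 87.5, 101 and 94.1 CPM in non-responsive and 188, 251 and 193 CPM in responsive tumours. The non-responsive tumours were close together and all below the responsive ones. The means were 94.1 ± 6.57 and 211 ± 35.2 CPM (SD, n = 3). Plat differed by -1.16 ± 0.20, a 2.24-fold lower level, which passed DESeq2 (adjusted p = 0.000152) and did not pass edgeR (adjusted p = 0.350). It passed DESeq2 without any 1 of the 6 tumours, with an adjusted p of at most 0.0112. The other activator, Plau or urokinase, differed by -0.40 ± 0.38, and by 0.099 without responsive replicate 1. Its receptor Plaur differed by -0.16 ± 0.32. In FPKM Plat exceeded Plau in every tumour, 1.25- to 3.85-fold.

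Serpine2, an inhibitor of thrombin and of the plasminogen activators (chromosome 1, 79794197 to 79861180), was at 54.2, 122 and 76.0 CPM in non-responsive and 57.3, 48.2 and 41.8 CPM in responsive tumours. Non-responsive replicate 1 lay below responsive replicate 1, so the groups overlapped. Serpine2 differed by 0.77 ± 0.32 (edgeR adjusted p = 0.389), and by 0.43 without non-responsive replicate 2. A2m, a broad protease trap, differed by 1.21 ± 0.88, by 2.26 without responsive replicate 1 and by 0.67 without responsive replicate 3. Its lowest value was 0.453 CPM, in responsive replicate 3.

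Of 72 further genes of these pathways 71 were in the table and 38 passed the expression filter, 20 above and 18 below 0 (median 0.12). By list, 2 of 6 complement components and 8 of 13 complement regulators and receptors were above 0. So were 4 of 8 coagulation factors and receptors, 2 of 4 anticoagulant and 4 of 7 fibrinolysis genes. The split by system among the members was thus not repeated in all of these lists. None of the 38 further genes passed edgeR over all genes. At an unadjusted edgeR p under 0.05, 6 of them were higher and 1 lower, against the backgrounds of 6.79% and 5.79%. Several factors made by the liver were scarce: F2, F11, F12, Plg and Mbl2 had at most 0.185 CPM, and Fga, Fgb and Fgg at most 0.834 CPM. Kng2, a kininogen, was at 3.38 to 9.44 CPM, Vtn, vitronectin, at up to 4.79 CPM and Hc, complement C5, at up to 3.75 CPM. Albumin (Alb), a hepatocyte marker, was at 16.3 CPM in non-responsive replicate 3, 4.97 CPM in responsive replicate 1 and at most 0.165 CPM elsewhere. The gene at lower levels was Cfd, adipsin, the alternative pathway protease of adipocytes, at 14.6, 91.3 and 121 CPM against 3411, 383 and 142 CPM (-4.12 ± 1.35). Adipocyte markers had the same highest tumour, responsive replicate 1, and their part in the result was not tested.

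Among those at higher levels were the lectin receptor Cd93 of endothelium and myeloid cells, the integrin chain Itgb2 of complement receptors, Lman1, Axl and Mertk. Lman1, a cargo receptor for the secretion of factors V and VIII, was at 116, 129 and 139 CPM in non-responsive and 63.4, 66.3 and 60.7 CPM in responsive tumours. It differed by 1.01 ± 0.17 and passed DESeq2 (adjusted p = 0.000272). Cd93 was at 70.2, 234 and 202 CPM against 49.2, 48.2 and 33.2 CPM (1.96 ± 0.45, DESeq2 adjusted p = 0.00503), with non-responsive replicate 1 lowest of its group as for the endothelial markers. Itgb2 differed by 1.20 ± 0.47 without overlap.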

How the data were processed

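RNA of 6 mouse bladder tumours was measured by bulk sequencing. Per the labels' protocols, TRIZOL was used for RNA and an Illumina TruSeq RNA kit for the libraries. Per the submitters' processing notes the build was mm10; no label names an aligner, counting tool, strand setting or annotation. The authors deposited an estimated count (expected count) per gene, with 8.19 to 9.99% of values per tumour not whole, and an FPKM value, scaled for length and depth. Counts were rounded for all tests; FPKM served for levels between genes and an alternative. Per the file headers, columns match the sample titles. Gene coordinates, counted from 1, come from GENCODE mouse release M21 (mm10), and promoter windows from RefSeq (27 of 38 genes matched).

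Genes were tested with edgeR 4.0.16 (R 4.3.3): TMM, default filter, robust quasi-likelihood, two-sided, Benjamini-Hochberg over 14505 genes, threshold 5%, non-responsive minus responsive. Log2 fold changes are given with SE, which is the fold change divided by the square root of the F statistic. The labels do not say that tumours came from separate animals, so the p-values cover only the spread among these samples, which may be technical. Libraries differed beyond sampling noise (chi-square at least 75.8 for each degree of freedom). The fit was tested on simulated data with the same groups. It called 5 of 80 genes given a 2-fold change, 57 of 80 given 4-fold and 38 of 40 given 8-fold, with 9 false calls. A 2-fold difference would thus mostly be missed. Members and lists were chosen with earlier results of these data known. All values per tumour are given for members at an unadjusted p under 0.05, the 2 of smallest p in each role, and C1qa, C1qb, C1qc, C3, F3 and Thbd. Other pathway genes are named at an unadjusted p under 0.05, up to 4 per direction and list; single marker genes, the genes near 0, the paralogs, Tyro3 and the Cfb to C2, Plat to Plau and C1q to macrophage ratios were added after the values were seen. Alternatives were other scalings, DESeq2 1.42.0, limma 3.58.1 (voom, or log2(FPKM + 1) and log2(FPKM + 0.1)), other filters, a replicate block, and each tumour left out in turn. DESeq2 without each tumour was added after seeing the data. 1 further pathway gene is not reported here.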

Additional observations from a re-analysis of the deposited data

How the results depend on the processing

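No member passed edgeR under any edgeR or limma setting, and 2 passed DESeq2. Members at lower levels at an unadjusted p under 0.05 numbered 8 with limma-voom, against 5, and 1 to 7 with a tumour left out. The share of all genes was 11.4% with limma-voom, against 5.79%, and 3.01 to 11% with a tumour left out. Those at higher levels numbered 4 to 6 with a tumour left out, against 6 with all. The share of all genes at higher levels was then 3.68 to 12.2%, against 6.79% with all tumours. The median log2 fold change of members was -0.046 with all tumours and -0.16 to 0.33 with a tumour left out. DESeq2 called 2 members with all tumours and 2 to 11 with a tumour left out, with 11 without non-responsive replicate 1 and F10 and Plat among them each time. The share of all genes called was 13.1% without that tumour, 1.04 to 2.95% without any other and 2.87% with all. No pairing by replicate number was seen (correlations of same-numbered deviations of -0.110, -0.0867 and -0.0237). With deviations taken within groups of 3 tumours, this check could miss a pairing. With the replicate block 6 members were higher and 5 lower at an unadjusted p under 0.05, where the shares of all genes were 6.01 and 5.03%. In that fit 0 passed, and Cfp, Cfi and F3 were at 0.090, 0.16 and -0.22.

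Of the 38 members 10 changed sign in at least 1 of 15 alternatives; the cause was not tested. With limma-voom Cfp, Cfi and F3 were at 0.056, 0.40 and -1.25, on log2(FPKM + 1) at 0.16, 0.060 and -0.059, and on log2(FPKM + 0.1) at 0.17, 0.20 and -0.078. With a tumour left out the log2 fold changes ranged from -0.18 to 0.46 for C1qa, -0.0009 to 0.60 for C1qb, -1.004 to 0.18 for Cfb, -0.68 to 0.76 for Cfi, -0.33 to 0.43 for Cfp, -0.17 to 0.046 for Cr1l, -1.12 to 1.03 for F3, -0.19 to 0.62 for Masp1, -0.65 to 0.099 for Plau and -0.42 to 0.087 for Plaur. No sign changed with another scaling or count filter. F8 had no value in the FPKM alternatives, and F7, F8 and Cfi none under the stricter filter. The lowest count of a member in a tumour was 5, for F7 in responsive replicate 3.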
